A study of Homo sapiens with 6 samples.

Results

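The genes described here are the inhibitors of apoptosis BIRC2, BIRC3 and XIAP and the adaptors TRAF1, TRAF2 and TRAF3. With them come the kinases MAP3K14 (NIK) and RIPK1, and CFLAR (cFLIP). All 9 genes were found by symbol among the 60676 genes listed in the normalized count tables. They were measured in HT29, an established colon adenocarcinoma cell line of wild-type genotype, kept for 48 h in control medium (untreated), in histidine-depleted medium or in tryptophan-depleted medium, with 2 libraries per group from polyA-selected RNA. The study set the 2 depletions against untreated cells to follow the response to a shortage of histidine, with tryptophan as the comparator for amino acid shortage in general. Per the methods, the histidine-free medium was built on an RPMI 1640 base and the tryptophan-free medium on a DMEM F-12 base, both with dialyzed serum, and the base of the control medium in this experiment is not named. A missing amino acid and its base medium therefore cannot be told apart. The members were chosen by their known place in one pathway, but BIRC3 was already known to be among the genes with the largest rise after histidine depletion in these libraries. The values of that contrast are therefore given as a description, with standard errors and without p-values, and the contrast of both depletions, which uses the same histidine-depleted libraries, is treated likewise, for the members and for the other genes of the pathway alike. Where genes are called or counted in those contrasts, the threshold serves as a description only. Adjusted p-values are given for tryptophan depletion against untreated cells. That comparison reuses the untreated libraries of the contrast in which BIRC3 was known to rise. Its p-values are therefore not independent of how the members were chosen.

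Noncanonical NF-kB signalling is held off in resting cells by a complex in which TRAF3 binds the kinase NIK, the product of MAP3K14, and TRAF2 recruits the ubiquitin ligases cIAP1 (BIRC2) and cIAP2 (BIRC3), which mark NIK for degradation. Engagement of receptors such as the lymphotoxin beta receptor, CD40 or FN14 breaks up this complex, NIK accumulates and activates IKK alpha (CHUK), and p100 (NFKB2) is processed so that it enters the nucleus with RELB. At the TNF receptor the same TRAF2 and cIAP proteins ubiquitinate RIPK1, which carries the canonical NF-kB signal, and cFLIP holds caspase-8 in check. BIRC3, TRAF1, CFLAR, NFKB2, RELB, NFKBIA and TNFAIP3 are textbook NF-kB target genes. Protein stability governs NIK, so an mRNA level says nothing of the activity of the complex.

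The 6 libraries held 46390819 to 64388876 reads in genes. Of the 10 intestinal epithelial markers, 9 had at least 100 reads in every library, and their summed level ran from 2367 to 2576 RPKM (reads scaled to the length of a gene's exons and to the library's total) in untreated and histidine-depleted cells and from 3233 to 3273 in tryptophan-depleted cells. Single epithelial markers moved within that sum: after histidine depletion LGALS4 went from 54147 and 56465 normalized counts to 17513 and 19659.8, CDX2 from 469 and 457 to 182 and 172, and CDX1 from 21.9 and 18.9 to 0 in both libraries, while KRT19 went from 19836 and 21457 to 57635 and 62356 and KRT20 from 10264 and 10759 to 34599 and 35062. Tryptophan depletion moved such markers too, with KRT20 at 55379 and 54901, CDH1 going from 21703 and 22815 to 36293 and 36805, and CDX1 at 5.34 and 2.75. Their part in the results below was not tested. Of 10 leukocyte markers, 4 stayed at or under 3 reads in every library and MS4A1 was at 0, while the summed level of that list, 742.6 and 771.1 RPKM in untreated cells against 124.8 to 144 after histidine and 409.4 to 410.6 after tryptophan depletion, came almost wholly from LYZ, a lysozyme gene that intestinal epithelium also expresses. Among the low leukocyte markers CD14 had 104 and 119 normalized counts in untreated cells, 50.6 and 63.1 after histidine and 379.9 and 367 after tryptophan depletion. ITGAM had 65.6 and 76.6 in untreated cells, 103 and 96.7 in histidine-depleted and 4.27 and 10.99 in tryptophan-depleted cells. The fibroblast and endothelial list summed to at most 0.300 RPKM. The response was broad: with limma on log2(normalized count + 1) and Benjamini-Hochberg adjustment over all genes tested (adjusted p under 0.05), histidine depletion left 39.1% of 18288 genes higher and 38.2% lower, tryptophan depletion 36.1% of 17960 genes higher and 34.8% lower, and histidine-depleted cells were above tryptophan-depleted cells in 38.7% of 18264 genes and below them in 38%. These shares are the background against which each count below stands.

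The promoter sequences of BIRC3 and TRAF3 are shown because both carry a match to the NF-kB consensus while their transcripts differed most in size of change among the members that have one. They are the 250 bases before the RefSeq start site (GRCh38.p14, 5′ to 3′ on the + strand, BIRC3 at chr11:102317234-102317483 and TRAF3 at chr14:102777199-102777448), with the matches in capitals.
BIRC3: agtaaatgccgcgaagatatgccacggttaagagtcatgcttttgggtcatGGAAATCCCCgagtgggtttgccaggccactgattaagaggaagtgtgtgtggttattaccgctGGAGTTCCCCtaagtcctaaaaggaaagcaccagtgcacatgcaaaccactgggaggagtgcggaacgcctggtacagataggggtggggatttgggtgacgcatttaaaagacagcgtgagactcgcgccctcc
TRAF3: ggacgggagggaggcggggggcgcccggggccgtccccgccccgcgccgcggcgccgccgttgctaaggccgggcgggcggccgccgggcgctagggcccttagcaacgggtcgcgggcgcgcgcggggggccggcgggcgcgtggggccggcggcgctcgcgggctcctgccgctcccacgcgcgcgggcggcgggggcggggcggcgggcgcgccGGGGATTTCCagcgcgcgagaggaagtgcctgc
The BIRC3 window holds 2 matches, both read on the − strand, at positions -199 to -190 and -135 to -126 from the start site, and lies in an intron of an unnamed gene on the opposite strand. The TRAF3 window is 86.4% G or C, overlaps no annotated exon, and holds 1 match on the + strand at -33 to -24. A further match, GGGGAATTCC, lies on the + strand at -97 to -88 from the first of the 4 CFLAR start sites (chr2:201118619-201118628). RefSeq windows were found for 9 of the 9 members, 19 in all, and 3 of these windows (15.8%) held the consensus, against 9.96% of 35116 promoter windows of the same length searched on both strands. The 3 windows of TRAF1, which rose 20.5-fold with histidine depletion, held no match to it. Nor did the windows of BIRC2, XIAP, TRAF2, MAP3K14 and RIPK1. The AP-1 motif TGANTCA was found in 1 member window, at -160 to -154 from another CFLAR start site, and in 6.57% of all windows. The amino acid response element TGATGNAA was found in 0 member windows and in 3.14% of all. No searched motif overlapped another in the member windows, and a match is a string of letters, not a measured binding site.

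BIRC3 and TRAF1 separated the 2 depletions by far more than the other members did. Both were among the lowest of the 9 in untreated cells, both were raised more than 20-fold in histidine-depleted cells, and after tryptophan depletion TRAF1 was 2.08-fold up while BIRC3 stayed close to its untreated level. On a common scale for all libraries, BIRC3 (chr11:102317484-102339403, + strand, GRCh38), the ubiquitin ligase cIAP2, had normalized counts of 316 and 377 in untreated cells, 9841 and 9513 in histidine-depleted cells, and 402 and 385 in tryptophan-depleted cells. The histidine-depleted libraries stood far above the rest, and both tryptophan-depleted libraries lay just above both untreated ones. In the tables as deposited, BIRC3 went from 344 ± 43.8 to 9657 ± 261 normalized counts with histidine depletion (mean ± SD of the 2 libraries of each group, as in all such pairs below), a log2 fold change of 4.81 (standard error 0.068), or 28.1-fold on the log2(normalized count + 1) scale. With tryptophan depletion it went from 341 ± 42.5 to 385 ± 9.33, a log2 fold change of 0.18 (standard error 0.094) that did not pass (limma adjusted p = 0.0756). That call changed with the library left out. Without untreated replicate 2 the log2 fold change was 0.31 (limma adjusted p = 0.00362), and without untreated replicate 1 it was 0.055 (limma adjusted p = 0.629). With all libraries kept it passed under quantile normalization and in a fit on all 6 libraries. In bulk RNA, fewer cells that carry a transcript and less transcript per cell cannot be told apart, and this holds for every value below.

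TRAF1 (chr9:120902393-120929173, − strand), an adaptor that joins TRAF2 and the cIAP proteins at TNF receptors, had normalized counts of 92.9 and 104 in untreated cells, 2101 and 1959 in histidine-depleted cells, and 214 and 199.6 in tryptophan-depleted cells. The 3 groups did not overlap. Histidine depletion gave a log2 fold change of 4.36 (standard error 0.091, 20.5-fold). Tryptophan depletion raised TRAF1 by 1.06 on the log2 scale (standard error 0.14, limma adjusted p = 4.35e-11), the largest rise among the members in that comparison. In histidine-depleted cells BIRC3 stood 4.62 (standard error 0.071) and TRAF1 3.29 (standard error 0.094) higher on the log2 scale than in tryptophan-depleted cells.

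**Figure D1:**
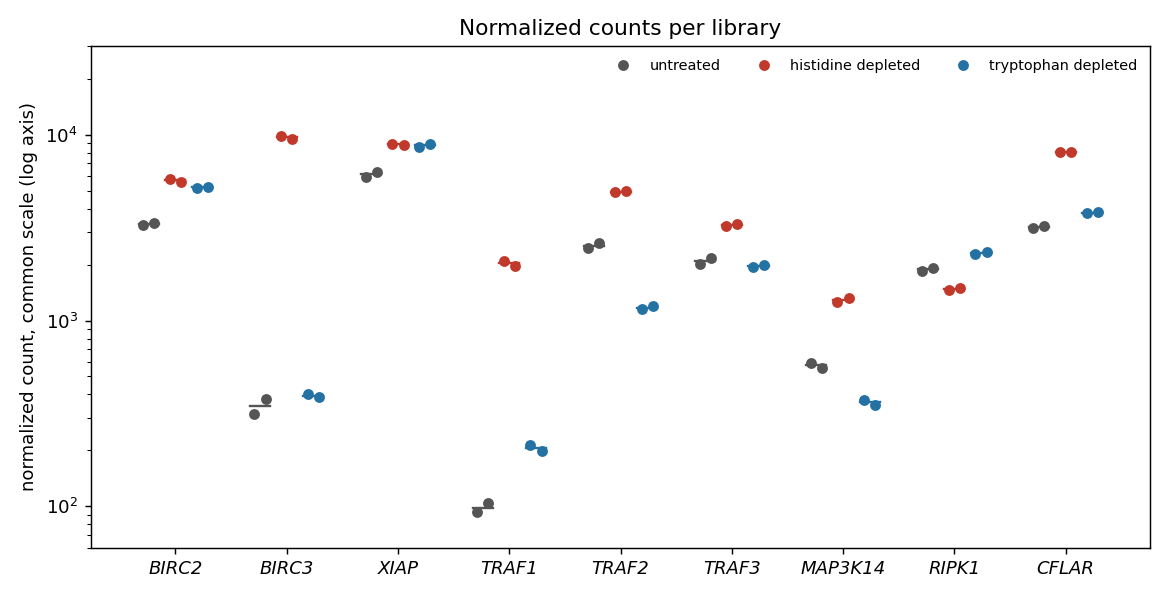
Normalized count of each member in each of the 6 libraries on a common scale, with a logarithmic vertical axis. Points are libraries and short lines are group means (n = 2 libraries per group). The histidine-depleted BIRC3 libraries, at 9841 and 9513, stand apart from untreated and tryptophan-depleted libraries at 316 to 402, whereas for TRAF2 and MAP3K14 the untreated libraries lie between both depletions.

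TRAF2 and MAP3K14 moved in opposite directions in the 2 depletions. TRAF2 (chr9:136881912-136926607, + strand), the adaptor that brings the cIAP ligases to the complex, had normalized counts of 2447 and 2607 in untreated cells, 4892 and 4949 in histidine-depleted cells, and 1150.3 and 1196 in tryptophan-depleted cells. Its log2 fold change was 0.97 (standard error 0.053) with histidine depletion, and with tryptophan depletion it fell by 1.11 (standard error 0.055, limma adjusted p = 1.39e-41). No other member fell as far. Between both depletions it differed by 2.07 on the log2 scale (standard error 0.047), 4.19-fold.

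MAP3K14 (chr17:45263119-45317029, − strand), which encodes NIK, had normalized counts of 589 and 558 in untreated cells, 1263 and 1323 in histidine-depleted cells, and 373 and 353 in tryptophan-depleted cells. As for TRAF2, the untreated libraries lay between the depleted ones without overlap. Histidine depletion gave a log2 fold change of 1.18 (standard error 0.070), and with tryptophan depletion MAP3K14 fell by 0.67 (standard error 0.086, limma adjusted p = 4.97e-12). The antisense gene MAP3K14-AS1 covers 15.1% of its exonic bases. The libraries were made with a stranded kit, but whether strand was used in counting is not given in the sources used here. MAP3K14-AS1 itself had 259 and 282 normalized counts in untreated cells, 338 and 389.7 after histidine and 515 and 527 after tryptophan depletion. It was thus highest where MAP3K14 was lowest, but after histidine depletion both genes stood above their untreated libraries. Its part in the MAP3K14 values was not tested.

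TRAF3 (chr14:102777449-102911500, + strand), the adaptor that binds NIK directly, moved less. Its normalized counts were 2005 and 2163 in untreated cells, 3231 and 3304 in histidine-depleted cells, and 1944 and 1998 in tryptophan-depleted cells. Only the histidine-depleted libraries stood apart clearly, with a log2 fold change of 0.66 (standard error 0.055). With tryptophan depletion the log2 fold change was -0.087 (standard error 0.054, limma adjusted p = 0.139), which did not pass. Without untreated replicate 1 it was -0.14 and passed (limma adjusted p = 0.00772).

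BIRC2 and XIAP rose in both depletions, by less than 1 log2 unit. BIRC2 (chr11:102347211-102378670, + strand), which encodes cIAP1 and lies just downstream of BIRC3 on the same strand, had normalized counts of 3282 and 3339 in untreated cells, 5766 and 5593 in histidine-depleted cells, and 5195 and 5239 in tryptophan-depleted cells. Every depleted library exceeded every untreated one. The log2 fold change was 0.79 (standard error 0.050) with histidine depletion and 0.65 (standard error 0.048, limma adjusted p = 2.62e-26) with tryptophan depletion. The direct difference between both depletions was 0.12 (standard error 0.040), and 0.016 with quantile normalization. The call of BIRC2 in that comparison was lost with quantile normalization, with limma without trend, and without histidine-depleted replicate 1 or either tryptophan-depleted replicate. BIRC2 and BIRC3 are neighbours with related products, yet their histidine changes were 1.73-fold and 28.1-fold.

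XIAP (chrX:123859712-123913972, + strand), the inhibitor that binds caspases directly, went from 6056 ± 289 to 8832 ± 67.2 normalized counts with histidine depletion, a log2 fold change of 0.55 (standard error 0.051), which was 0.32 with quantile normalization. With tryptophan depletion it went from 6003 ± 270.3 to 8555 ± 229, higher by 0.51 on the log2 scale (standard error 0.047, limma adjusted p = 1.18e-19). The 2 depletions differed by 0.017 on the log2 scale (standard error 0.041), below the threshold, and this small difference changed sign with the scaling (-0.0043 with edgeR, -0.13 with quantile normalization). XIAP has 3 named pseudogenes, which leaves the assignment of some of its reads uncertain.

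CFLAR (chr2:201116154-201176687, + strand), the catalytically inactive relative of caspase-8, had normalized counts of 3130.4 and 3238.5 in untreated cells, 8056 and 8032 in histidine-depleted cells, and 3781 and 3822 in tryptophan-depleted cells. The 3 groups did not overlap. Histidine depletion gave a log2 fold change of 1.35 (standard error 0.050, 2.54-fold), and tryptophan depletion raised it by 0.25 (standard error 0.049, limma adjusted p = 2.60e-06). Genes on the opposite strand, CFLAR-AS1 among them, cover 10.1% of its exonic bases. CFLAR-AS1 had 20.8 and 20.9 normalized counts in untreated cells, 125 and 114 where histidine was depleted, and at most 10.99 where tryptophan was. The CFLAR-AS1 counts are far below those of CFLAR in every library, and their part in the CFLAR values was not tested. RIPK1 (chr6:3063824-3115187, + strand), the kinase that TRAF2 and the cIAP proteins ubiquitinate, was the member with the reverse order, at 1856 and 1917 normalized counts in untreated cells, 1453 and 1502 in histidine-depleted cells, and 2292 and 2325 in tryptophan-depleted cells. Its log2 fold change was -0.34 (standard error 0.058) with histidine depletion and 0.28 (standard error 0.053, limma adjusted p = 7.52e-07) with tryptophan depletion. In histidine-depleted against tryptophan-depleted cells its difference was -0.64 on the log2 scale (standard error 0.048), and no other member was called lower there, except XIAP with quantile normalization.

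**Figure D2:**
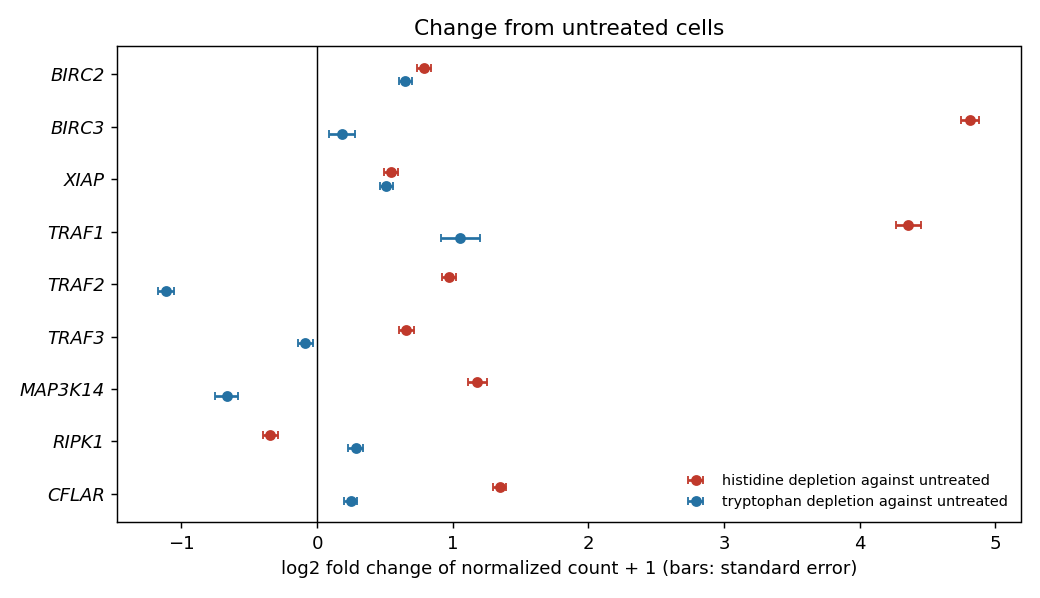
Log2 fold change of each member from untreated cells with histidine depletion and with tryptophan depletion, on the log2(normalized count + 1) scale, with bars for the standard error from limma (n = 2 libraries per group). BIRC3 and TRAF1 lie at 4.81 and 4.36 with histidine depletion, and TRAF2, MAP3K14, RIPK1 and TRAF3 lie on opposite sides of 0 in the 2 comparisons, TRAF3 with a tryptophan value (-0.087) that did not pass.

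Counted together, 8 of the 9 members were called higher and 1 lower after histidine depletion, beside the 39.1% and 38.2% of all genes. Since the rise of BIRC3 in that contrast was known when the members were chosen, nothing is read from the count. After tryptophan depletion 5 of 9 members rose (BIRC2, XIAP, TRAF1, RIPK1, CFLAR) and 2 fell (TRAF2, MAP3K14), beside 36.1% and 34.8% of all genes. The median log2 fold change of the members was 0.97 with histidine depletion and 0.25 with tryptophan depletion, where the median over all genes tested was 0.010 and 0.013. In histidine-depleted against tryptophan-depleted cells, 7 members were called higher and 1 lower, beside 38.7% and 38% of all genes, with a median of 1.08 against 0.011. Both comparisons with untreated cells share the untreated libraries.

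Levels between genes were compared per length, as RPKM over the union of annotated exons, and the order of the members changed with the medium. In untreated cells BIRC2 (14.2 RPKM), TRAF2 (13.4) and XIAP (12.4) were highest, in that order. TRAF3 (3.40), RIPK1 (3.01), CFLAR (2.75) and MAP3K14 (1.97) followed, and BIRC3 (0.898) and TRAF1 (0.428) came last. Since each group has 2 libraries, neighbours in this order are told apart only by whether their libraries overlap. With these lengths those 9 did not, but some neighbours change places with another length, as given below.

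After histidine depletion TRAF2 (23.0 RPKM), BIRC3 (22.2) and BIRC2 (21.5) were highest, and the libraries of BIRC3, at 22.6 and 21.7, overlapped those of BIRC2, at 21.9 and 21.1. XIAP (15.9), TRAF1 (7.77), CFLAR (6.13), TRAF3 (4.71), MAP3K14 (3.91) and RIPK1 (2.08) followed. After tryptophan depletion BIRC2 (21.2) and XIAP (16.9) led, TRAF2 (5.88) came next, and BIRC3 (0.967) and TRAF1 (0.850) were again last. In between, RIPK1 (3.49), CFLAR (3.11) and TRAF3 (3.05) lay close together, the last 2 separated by less than 0.1 RPKM, above MAP3K14 (1.18).

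Per length, BIRC3 was 5.81% and 6.81% of BIRC2 in the untreated libraries, 103% in both histidine-depleted libraries (103.0 and 102.7), and 4.67% and 4.44% in the tryptophan-depleted ones. The summed level of the 3 inhibitors was 27.4 and 27.7 RPKM in untreated cells, 60.6 and 58.7 without histidine, and 38.8 and 39.3 without tryptophan. TRAF1 was 3.11% and 3.28% of TRAF2 in untreated cells, 35.2% and 32.4% without histidine, and 15.3% and 13.7% without tryptophan, where TRAF1 rose and TRAF2 fell. MAP3K14 was 61.6% and 54.1% of TRAF3, its binding partner, in untreated cells, 82.0% and 83.9% without histidine, and 40.3% and 37.0% without tryptophan. CFLAR was 45.7% and 47.3% of CASP8, 98.0% and 98.1% without histidine, and 38.8% and 37.95% without tryptophan. These ratios describe mRNA only. The order depends on the length used: with the longest transcript of each gene in place of all exons, TRAF2 came first in untreated cells too, and RIPK1 with TRAF3, and CFLAR with TRAF1 after histidine depletion, changed places. With those lengths TRAF1 was 1.98% and 2.09% of TRAF2 in untreated cells, 22.4% and 20.6% without histidine and 9.71% and 8.69% without tryptophan, and CFLAR was 28.4% and 29.5%, 61.0% and 61.1%, and 24.2% and 23.6% of CASP8. Since the length of a gene is the same in all media, the order of the media within each of these ratios cannot depend on this choice.

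**Figure D3:**
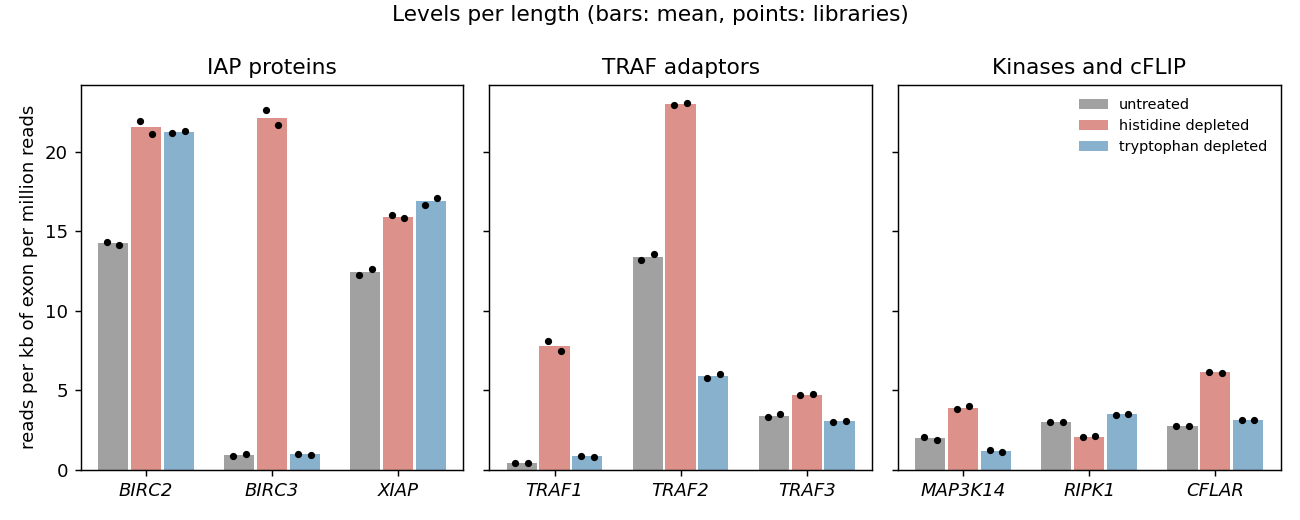
Level of each member in RPKM over all annotated exons, with bars for the mean of 2 libraries and points for each library. BIRC3 rises from 0.898 in untreated to 22.2 in histidine-depleted cells, next to BIRC2 at 21.5, and is at 0.967 in tryptophan-depleted cells.

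The other genes of the pathway were taken from 8 lists of 76 genes. Of the 64 tested after histidine depletion 42 rose and 13 fell (39.1% and 38.2% of all genes), with a median log2 fold change of 0.31. Of the 62 tested after tryptophan depletion 33 rose and 14 fell (36.1% and 34.8% of all genes), with a median of 0.14. LTA, TNF, TNFRSF9 and XAF1 in the first of these counts, and TNFRSF9 and XAF1 in the next, had untreated means under 10 normalized counts, reached the minimum only through the depleted libraries and so had to differ to be tested.

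Among TNF family ligands, 4 of 8 reached the minimum mean of 10 normalized counts for the histidine comparison, and 4 were called higher. LTB, which forms the membrane-bound lymphotoxin, had 27.2 ± 6.30 normalized counts in untreated and 189 ± 21.9 in histidine-depleted cells (log2 fold change 2.77, standard error 0.202), while LTA, TNF and TNFSF13B stayed below 100 normalized counts in every library. After tryptophan depletion 2 ligands were tested. LTB fell by 1.32 on the log2 scale (standard error 0.376, limma adjusted p = 0.0011), from 26.9 ± 6.17 to 10.3 ± 3.10 normalized counts. Its tryptophan-depleted libraries held only 12 and 9 reads, so the size of this fall is uncertain. TNFSF13B rose by 1.45. Of the 7 receptors tested, 2 rose and 5 fell after histidine depletion, and 5 rose and 2 fell after tryptophan depletion. TNFRSF9 (4-1BB), a receptor that signals through TRAF1 and TRAF2, had 3 and 13 normalized counts in untreated cells and over 200 in each depleted library. Its untreated libraries are too low and too far apart for a fold. TNFRSF12A, which encodes FN14, rose from 7928 ± 473 to 27306 ± 24.7 with histidine depletion (log2 fold change 1.79, standard error 0.053), and tryptophan depletion raised it by 0.93 on the log2 scale (limma adjusted p = 1.57e-40). LTBR, the lymphotoxin beta receptor gene, fell by 0.65 with histidine depletion (standard error 0.051) and rose by 0.27 with tryptophan depletion (limma adjusted p = 1.86e-07). TNFRSF11A, which encodes RANK, fell by 2.41 with histidine depletion (standard error 0.091) and fell by 3.25 with tryptophan depletion (limma adjusted p = 4.74e-65). TNFRSF1A, the main TNF receptor, was lower in histidine-depleted than in tryptophan-depleted cells, with a log2 difference of -1.08 (standard error 0.043).

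Of the 8 other genes of the noncanonical arm, 8 were called higher after histidine depletion, beside 39.1% of all genes. Their median log2 fold change was 0.64, and single values ran from 0.19 (PELI1) to 2.76 (RELB). Those of CHUK (0.25) and ZFP91 (0.27) were small too. The count says nothing of the activity of the arm. After tryptophan depletion 3 rose and 2 fell, with a median of 0.093. RELB had normalized counts of 680 and 794 in untreated cells, 4962 and 4952 in histidine-depleted cells, and 1012 and 1062 in tryptophan-depleted cells, with a histidine log2 fold change of 2.76 (standard error 0.065). NFKB2, the precursor of its partner, had 1639.5 and 1950.5 in untreated cells, 8718 and 8616 in histidine-depleted cells, and 2134 and 1951 in tryptophan-depleted cells, with a histidine log2 fold change of 2.29 (standard error 0.063). For both, the histidine-depleted libraries stood far above the other 4. IKBKE fell by 1.32 with tryptophan depletion (limma adjusted p = 9.32e-32). CHUK, the kinase downstream of NIK, had a log2 fold change of 0.25 (standard error 0.053) with histidine depletion. With tryptophan depletion it was -0.088 (standard error 0.051, limma adjusted p = 0.114), which did not pass.

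In the canonical arm 10 of 15 genes rose and 3 fell after histidine depletion, and 9 rose and 2 fell after tryptophan depletion. The inhibitor genes NFKBIE (log2 fold change 2.60, standard error 0.075) and NFKBIB (2.17, standard error 0.052) and the subunit genes RELA (2.14, standard error 0.051) and NFKB1 (1.42, standard error 0.049) rose most with histidine depletion. Against tryptophan depletion, NFKBIE was higher by 2.52, NFKB1 by 1.93 and RELA by 1.69 in histidine-depleted cells. In that comparison 8 of the 15 genes were higher and 4 lower. RBCK1 (HOIL-1), a subunit of the linear ubiquitin ligase, rose from 10418 ± 779 to 42574 ± 658 with tryptophan depletion (log2 fold change 2.03, limma adjusted p = 2.80e-76). Its difference in histidine-depleted against tryptophan-depleted cells was -2.20 on the log2 scale (standard error 0.047).

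Among deubiquitinases and their adaptors 5 of 6 rose and 0 fell after histidine depletion, and 3 rose and 2 fell after tryptophan depletion. TNFAIP3, which encodes the ubiquitin editing enzyme A20, had 175 and 154 normalized counts in untreated cells, 3913 and 3519 in histidine-depleted cells, and 86.4 and 89.7 in tryptophan-depleted cells. It rose by 4.50 with histidine depletion (standard error 0.078) and fell by 0.90 with tryptophan depletion (limma adjusted p = 1.07e-07). CYLD, which removes linear and lysine-63 chains from RIPK1 and other targets, rose by 2.07 with histidine depletion (standard error 0.061).

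Of 8 other TRAF genes and partners, 4 rose and 3 fell after histidine depletion, and 6 rose and 1 fell after tryptophan depletion. TRAF5 fell by 1.41 with histidine depletion (standard error 0.072), and TRAIP, a ubiquitin ligase of replication, fell by 1.08 with histidine depletion and fell by 2.18 with tryptophan depletion. Among 9 death signalling genes 5 rose and 2 fell after histidine depletion, and 4 rose and 2 fell after tryptophan depletion. CASP9, the initiator caspase of the mitochondrial route, rose by 1.99 with histidine depletion (standard error 0.059), and CASP10 fell by 1.77 (standard error 0.087). Of 7 other inhibitors of apoptosis and their antagonists, 4 rose and 0 fell after histidine depletion, and 2 rose and 2 fell after tryptophan depletion. DIABLO (Smac), which displaces caspases from XIAP, had 38.4 ± 6.84 normalized counts in untreated and 106 ± 11.02 in histidine-depleted cells (log2 fold change 1.45, standard error 0.206). Unnamed genes on the same strand cover 31.5% of its exonic bases and B3GNT4 on the opposite strand 13.9%, which leaves its level uncertain. BIRC5 (survivin), an inhibitor family member that is a mitotic protein, fell by 2.19 with tryptophan depletion (limma adjusted p = 1.18e-77) and had a log2 fold change of -0.062 with histidine depletion (standard error 0.051), which did not pass.

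**Figure D4:**
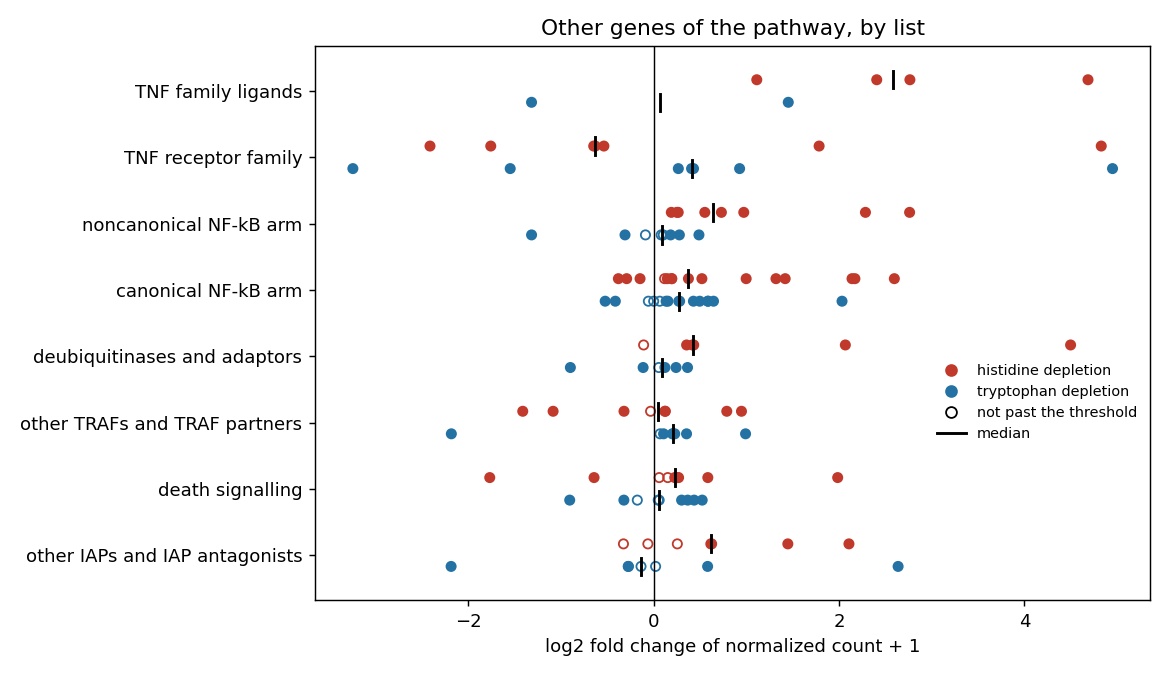
Log2 fold change of every tested gene of the 8 pathway lists with histidine depletion (upper row of each list) and with tryptophan depletion (lower row), on the log2(normalized count + 1) scale. Filled points passed the threshold, open points did not, and black lines are list medians, which for the noncanonical arm lie at 0.64 and 0.093.

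The genes whose pattern was most like that of BIRC3 over the 4 depleted libraries, by root mean square distance of log2 values from the untreated mean among 11406 protein-coding genes, were NR4A3 (distance 0.227), FCGR1A (0.3505) and GLIPR1 (0.356). NR4A3 had mean normalized counts of 9.84 in untreated, 257 in histidine-depleted and 13.3 in tryptophan-depleted cells, and FCGR1A 2.63, 137 and 3.43, so the distances of both rest on very low counts outside the histidine-depleted libraries. GLIPR1 had 47.1, 1887 and 54.1. All 3 reached the minimum of 100 for this ranking only through the histidine-depleted libraries. For TRAF1 they were SLC2A9 (0.292), IL1RL1 (0.304) and TGFB2 (0.324), at larger distances than for the members that changed less, and SLC2A9 and IL1RL1 likewise reached 100 only there. For TRAF2 they were FAM13B (0.082), PTBP2 (0.083) and KLF6 (0.087), each near 1 log2 unit up with histidine and 1 down with tryptophan depletion. For MAP3K14 they were SLC12A4 (0.037), PHACTR2 (0.044) and WDR4 (0.046). For CFLAR they were FAF2 (0.020), NFKBIA (0.027) and NUFIP2 (0.038), and NFKBIA, the I kappa B alpha gene, was the one among them that is also in a pathway list, with normalized counts going from 1460.2 and 1549.6 in untreated cells to 3699 and 3769 in histidine-depleted and 1808 and 1843 in tryptophan-depleted cells. None of these distances says anything about shared control.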

How the data were processed

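Per the labels and the study's methods, RNA of HT29 cells was sequenced as stranded mRNA libraries, aligned with STAR 2.7.10a to GRCh38, counted with HTSeq 2.0.5 on gencode 38 and normalized with DESeq2. The deposited signal values are gene counts divided by size factors, in 1 table per depletion, each with the untreated libraries. Whole reads were recovered for 100% of values (tolerance 0.01), which gave the depth. Symbols, coordinates and lengths came from gencode 44. Within each table limma 3.58.1 (R 4.3.3) was run on log2(value + 1) where the gene's mean reached 10, two-sided, with Benjamini-Hochberg adjustment over all genes. Both depletions were compared on recovered reads of all 6 libraries divided by common size factors. Alternatives were edgeR 4.0.16 and DESeq2 1.42.0 on recovered reads, quantile normalization, other pseudocounts and filters, and leaving out each library. The fits were also run on simulated data, of which no outcome is given here, so no result rests on it. The members and lists were chosen with earlier results of these data known. Named list genes passed the threshold with a log2 fold change of 1 or more in size and reached a mean of 100 in the higher group, at most 4 per list and comparison. LTBR, CHUK, LTA, TNF, TNFSF13B, XAF1 and CASP8 fall outside this rule and were chosen once their values were known. The p-values printed for LTBR and CHUK are therefore a description only. The 3 nearest genes were taken for BIRC3 and members whose log2 fold change reached 1 in size. No source says that the libraries come from separate cultures, so p-values measure only the spread between these libraries, which may be technical. That spread was unequal. Chi-square per degree of freedom between the 2 libraries of a group was 8.77 in untreated, 4.03 in histidine-depleted and 1.85 in tryptophan-depleted cells. The fits took 1 spread per gene for all groups of a comparison. The methods speak of exons of protein-coding genes, though the tables list all gene types.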

Additional observations from a re-analysis of the deposited data

How the results depend on the processing

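After histidine depletion the alternatives gave the same counts of members, 8 higher and 1 lower, from which nothing is read, since the rise of BIRC3 there was known when the members were chosen. Quantile normalization moved 6 of those fold changes by more than the spread between replicates, to 0.65 (BIRC2), 0.32 (XIAP), 0.86 (TRAF2), 0.60 (TRAF3), 1.34 (MAP3K14) and 1.18 (CFLAR). After tryptophan depletion 5 to 6 rose and 2 to 3 fell. BIRC3 also passed there with quantile normalization (0.29, limma adjusted p = 0.0169) and in a fit on all 6 libraries (0.19, limma adjusted p = 0.0255), beside the calls without one untreated library given above, and the cause was not tested. In histidine-depleted against tryptophan-depleted cells, 2 members were lower in place of 1 with quantile normalization, where XIAP (-0.13) joined RIPK1, and the 7 higher members were 6 to 7 over the alternatives, BIRC2 being the one lost in 5 of them. With the replicate number as a replicate block the counts of members were the same, 8 and 1, 5 and 2, and 7 and 1. Libraries that share a number correlated at 0.117 (untreated and histidine-depleted), -0.053 (untreated and tryptophan-depleted) and -0.10 (both depletions) in their deviations from the group means over 12480 genes, and the numbers mark no shared culture in the labels. With 2 libraries per group the spread is estimated largely from other genes of like level. The lowest member count was 85 reads (TRAF1, untreated).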
